A study of Mus musculus with 19 samples.

Results

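The distal chromosome ends were taken as the last 5 Mb of each mouse autosome, and their members were the deposited 5hmC peaks whose midpoint lay within 5 Mb of the largest peak end of the chromosome over 18 lists. They held 83251 of the 1594845 peaks on chromosomes 1 to 19, or 5.22%, in 95 Mb that made up 3.94% of the span between the first and last peaks. The rule used position and no measured level. The 18 lists held 1601520 peaks in all, of which 6526 lay on chromosome X and 149 elsewhere.

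5-Hydroxymethylcytosine (5hmC) is 5-methylcytosine that a TET enzyme has oxidised, and it serves both as a step in removing DNA methylation and as a lasting mark in gene bodies and enhancers. Mouse chromosomes are telocentric: the centromere sits at the start of the numbered sequence and the distal end carries the far telomere. Subtelomeric sequence inside that telomere is rich in repeats, is densely methylated in mouse embryonic stem cells, and in many mammalian chromosomes gives way to gene-rich DNA.

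5hmC was enriched from genomic DNA by glucosylation, biotin capture and sequencing in pre-iPSCs, reprogramming intermediates derived from mouse embryonic fibroblasts. Cultures were labelled as treated with ascorbic acid and 2i, a GSK3 inhibitor (CHIR-99021) plus a MEK inhibitor (PD-0325901), at every day, day 0 included. Knockout cells (KO) had 1 library of KO1 and 1 of KO2 at each of days 0, 2 and 10 (D0, D2 and D10), and wild-type cells (WT) had replicates A, B and C at the same days. Which gene was deleted, and how KO1 and KO2 were made, is not given in the labels. V6.5 mouse embryonic stem cells (mESC), labelled with the same treatment, were sampled at 0, 12 and 72 hours with 1 library per time, without replicates. Coordinates are on mm9.

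The lists differed in length, and the depth of the libraries is unknown in absolute terms. Pre-iPSC lists held from 54997 (WT D10 C) to 160426 (WT D2 A) autosomal peaks and mESC lists from 23876 to 33496. The distal ends had from 2947 to 8603 peaks per pre-iPSC list and from 1198 to 1729 per mESC list. KO1 carried an excess of chromosome 5 peaks that reached its distal end, with 384, 619 and 458 terminal peaks on days 0, 2 and 10 among the 54997 strongest, against 198 to 211 in KO2 and 244 to 297 in WT. The difference between KO and WT in the share is therefore also given without chromosome 5. In mESC, chromosome 8 held 2140 of 30603 peaks at 0 hours, 4416 of 33496 at 12 hours and 2866 of 23876 at 72 hours, so overlaps with those lists are also given without chromosome 8.

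The distal ends held a larger share of the 5hmC peaks of WT cells on each later day. The share was 4.64%, 4.71% and 4.80% in WT D0 A, B and C, 5.36%, 5.06% and 5.45% in WT D2 A, B and C, and 5.71%, 5.68% and 6.11% in WT D10 A, B and C. Every WT D10 library was above every WT D2 library, and every WT D2 library above every WT D0 library. In KO cells the share stood near the WT D2 level on all days, at 5.38% and 5.23% in KO1 and KO2 on day 0, 5.23% and 5.16% on day 2, and 5.08% and 5.27% on day 10. The mESC lists lay in the same range, at 5.09%, 5.16% and 5.02% at 0, 12 and 72 hours, with 95% Wilson intervals of 4.85% to 5.35%, 4.93% to 5.40% and 4.75% to 5.30%.

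**Figure D1:**
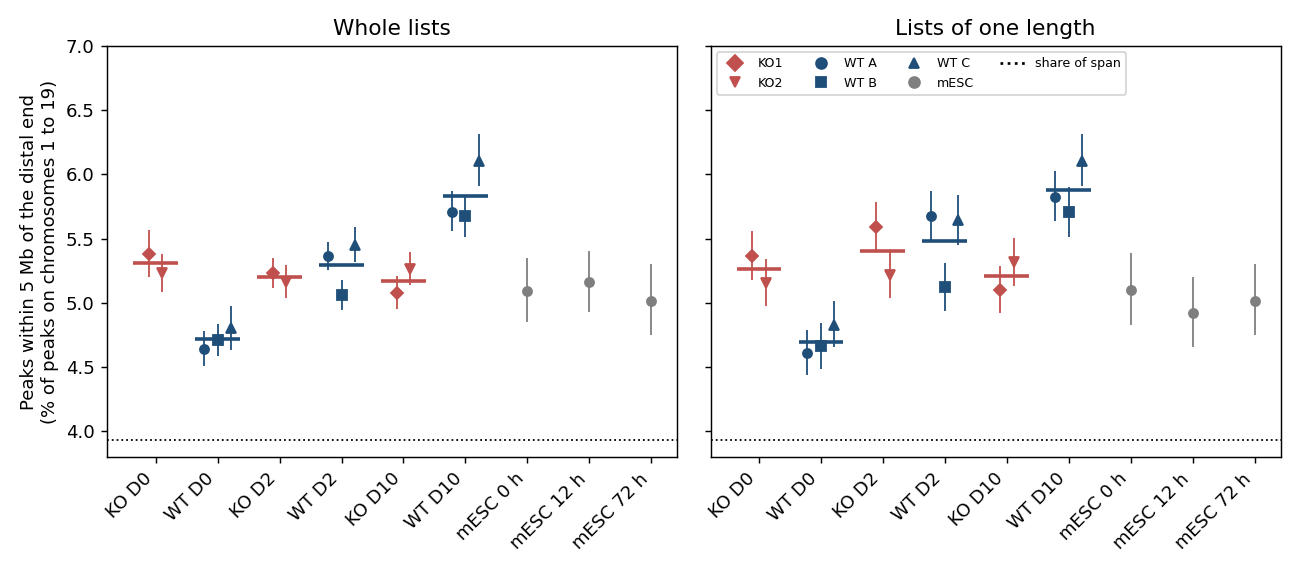
Share of autosomal peaks within 5 Mb of the distal end (%, axis not from 0), 1 point per library with its 95% Wilson interval, for whole lists (left) and for lists of one length (right: the 54997 strongest peaks of each pre-iPSC list, 23876 of each mESC list); horizontal bars are group means and the dotted line is the 3.94% of the span that the ends make up. WT D10 libraries lie at 5.68% to 6.11% in whole lists, above WT D2, WT D0, KO and mESC libraries.

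Summed over the chromosomes, peaks were denser at the ends than elsewhere in all 18 lists, but not on every chromosome. The share of a chromosome's peaks at its end was above the end's share of its span on 10 to 13 of the 19 chromosomes, depending on the list. It was above on chromosomes 4, 5, 6, 8, 9, 11, 14 and 15 in every list and on chromosomes 3, 12, 13, 17 and 18 in none. At WT D10 the end of chromosome 3 held 0.522% ± 0.0774 of that chromosome's peaks (SD, n = 3) in 3.20% of its span, and that of chromosome 18 held 0.615% ± 0.161 in 5.70%. Over all 19 chromosomes the ratio of peaks per Mb at the ends to peaks per Mb elsewhere was 1.48, 1.47 and 1.59 in WT D10 A, B and C, and 1.19, 1.21 and 1.23 in WT D0 A, B and C. It ran from 1.31 to 1.39 in the 6 KO lists and from 1.29 to 1.33 in mESC. Distal peaks were close in size to the rest of the same lists: their median width was 325, 325 and 284 bp in WT D10 A, B and C, against 319, 315 and 278 bp for the rest, and their median fold enrichment, the authors' value per peak, was 4.61, 4.24 and 4.56, against 4.58, 4.24 and 4.56. Wilson intervals cover counting error only.

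Over the WT days the mean share was 4.72% ± 0.0797, 5.29% ± 0.207 and 5.83% ± 0.240 (SD, n = 3 each), and the days differed by a two-sided exact permutation F test (p = 0.00357, the smallest this design allows). The share was 1.11 points higher at D10 than at D0, 0.574 points higher at D2 than at D0 and 0.540 points higher at D10 than at D2. Each of these 3 pairs gave p = 0.1 by exact permutation (0.1 after adjustment over the 3), the smallest that 3 against 3 allows. Lists cut to one length gave 1.18 points for D10 against D0, with exact p = 0.1. Within each letter of the WT labels the share was higher at D10 than at D0, by 1.07 points in A, 0.967 in B and 1.31 in C.

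Among the strongest peaks the distal share was lowest at D0 in WT. Of the 1000 peaks with the highest -log10 p in each list, 4.5%, 4.4% and 6.3% were distal in the 3 WT D0 libraries, 7.0%, 6.6% and 8.2% in the 3 WT D2 libraries and 7.6%, 7.4% and 7.7% in the 3 WT D10 libraries. WT D2 and WT D10 overlapped, and both lay above WT D0. KO1 had 5.7% on day 0, 6.1% on day 2 and 6.2% on day 10, and KO2 had 4.9%, 7.0% and 8.1%. At D10 KO2 was thus above all WT libraries and KO1 below them. Of the strongest 10000, the distal share averaged 5.51%, 5.91% and 5.88% in KO (D0, D2 and D10, n = 2 each), against 4.78% ± 0.346, 6.04% ± 0.418 and 6.65% ± 0.211 in WT (SD, n = 3 each). No test was run on these shares. The mESC 72 hour list had 6.5% of its strongest 1000 and 4.85% of its strongest 10000 peaks at the ends.

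KO and WT cells differed in how the distal share moved over the days. KO minus WT came to 0.590 points on day 0, -0.0932 points on day 2 and -0.659 points on day 10, with exact permutation p of 0.1, 0.5 and 0.1 (0.15, 0.5 and 0.15 after adjustment over the 3 days), where 2 against 3 cannot go below 0.1. The KO libraries lay above all WT libraries at D0, among them at D2 and below all of them at D10. Over the days together the difference was -0.0543 points (exact permutation within days, p = 0.753). The change from D0 to D10 differed between the arms by -1.25 points, KO minus WT (exact permutation within days, p = 0.01, the smallest possible; 0.03 after adjustment over 3 such comparisons). From D0 to D2 the changes differed by -0.683 points (p = 0.04, exact, 0.06 adjusted); this p was 0.12 in lists of one length and 0.0667 to 0.0833 without any single library of those days other than WT D2 B. The changes differed from D2 to D10 by -0.566 points (p = 0.18, exact, 0.18 adjusted). Leaving out any 1 library kept the D0 to D10 value between -1.34 and -1.11 points, with exact p of at most 0.025. These tests of change shuffled the libraries of each day on their own. They did not use that KO1 and KO2 were the same 2 lines on every day, so the KO arm rests on those lines alone.

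The difference between the arms from D0 to D10 was -1.23 points in lists of one length (exact p = 0.01) and -1.34 points without chromosome 5 (exact p = 0.01). KO1 and KO2 moved little and in opposite directions, by -0.305 and 0.0345 points between D10 and D0. The run names in the deposited lists come in styles that may mark batches, KO1 with WT B and KO2 with WT C. No label describes these styles as batches. Within these pairs KO was higher by 0.674 and 0.431 points at D0 and lower at D10, by -0.598 and -0.841 points. At D2 the pairs differed in direction, by 0.174 points (KO1 against WT B) and -0.289 points (KO2 against WT C).

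The WT change differed with the distance from the end. The outermost Mb was poor in peaks on all days: at D0, D2 and D10 it held 0.534% ± 0.0580, 0.502% ± 0.0163 and 0.445% ± 0.0109 of WT peaks (SD, n = 3 each; exact permutation F, p = 0.0214, 0.0238 after adjustment over 10 bands of 1 Mb), so its share fell over the days. The band from 1 to 2 Mb held 0.735% ± 0.0451, 0.820% ± 0.0403 and 0.823% ± 0.0782, with p = 0.221 (exact permutation F, 0.221 adjusted). From 2 to 3 Mb it was 1.04% ± 0.0496, 1.17% ± 0.0274 and 1.21% ± 0.0285 (exact permutation F, p = 0.0107, 0.0134 adjusted). From 3 Mb inwards the WT share differed over the days in every 1 Mb band up to 10 Mb (exact permutation F, p = 0.00357 each, 0.00510 adjusted). The outer 2 Mb together therefore showed no change over the WT days that passed the test (range of day means 0.0540 points, exact p = 0.632).

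The 5 Mb limit did not mark an edge of the WT pattern. Just inside it, from 4 to 5 Mb, the share was 1.24%, 1.47% and 1.79% (means of WT D0, D2 and D10), and just outside it, from 5 to 6 Mb, it was 1.25%, 1.59% and 1.92%. Relative to the mean density of the autosomes, WT D10 peaks were at 0.565 in the outermost Mb, 2.28 from 4 to 5 Mb and 2.57 from 7 to 8 Mb from the end.

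**Figure D2:**
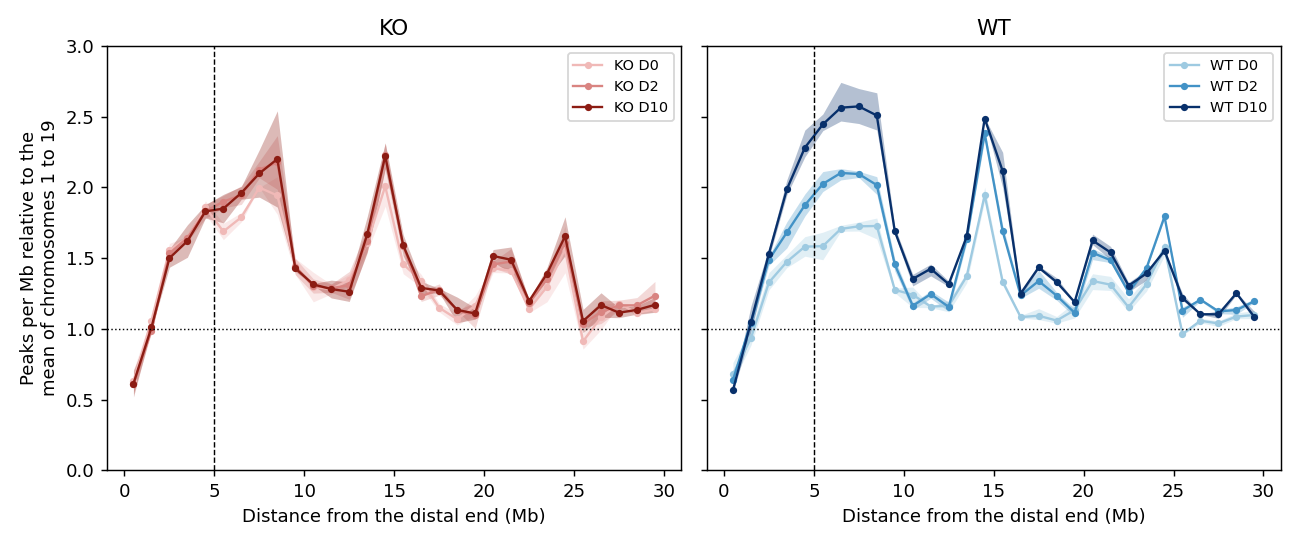
Peaks per Mb in 1 Mb bands counted from the distal end (x axis, Mb), relative to the mean density of chromosomes 1 to 19 (y axis), over all 19 chromosomes in whole lists; points are group means, shading runs from the lowest to the highest library (KO n = 2, WT n = 3), and the dashed line is the 5 Mb limit. WT days lie apart from about 3 to 10 Mb, where WT D10 is the highest, while KO days lie close together and all curves are below 1 in the outermost Mb.

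The neighbouring band from 5 to 10 Mb moved in the same direction. It held 6.97%, 7.54% and 7.51% of KO peaks (means of D0, D2 and D10, n = 2 each), against 6.31%, 7.63% and 9.27% of WT peaks (n = 3 each). WT D10 was 2.96 points above WT D0 there, and the change from D0 to D10 differed between KO and WT by -2.43 points (exact permutation within days, p = 0.01, 0.03 adjusted over 3). Bands from 10 to 15 and from 15 to 20 Mb also differed over the WT days (ranges of 1.07 and 1.28 points, exact permutation F, p = 0.00357 each, 0.00571 adjusted over 8 bands of 5 Mb), and the band from 30 to 35 Mb did not pass the test (range 0.0517 points, p = 0.343, exact, 0.343 adjusted). In mESC the 5 to 10 Mb band held 7.53%, 8.92% and 8.65% at 0, 12 and 72 hours.

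The opposite end of the chromosomes held a smaller share of WT peaks on the later days. The 5 Mb from the first peak of each chromosome, next to the centromere, held 3.33% ± 0.177, 3.07% ± 0.0411 and 3.11% ± 0.0526 of WT peaks at D0, D2 and D10 (SD, n = 3 each; exact permutation F, p = 0.0179). In KO it held 3.04%, 3.02% and 3.04% (means of D0, D2 and D10, n = 2 each). The bands beyond 5 Mb and the proximal ends were added with the data in view.

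Single chromosomes did not move as one. Autosomes were cut into 5 Mb tiles counted back from the end, and the peaks of each tile in the lists of one length were tested on log2(peaks + 1) with limma over all 440 tiles that averaged at least 20 peaks. The terminal tiles of 18 chromosomes were tested, and that of chromosome 18, with 1 to 13 peaks per library, was too sparse. Between WT D2 and WT D0, 6 of the 18 had more peaks at D2 and 5 had fewer, against 22% and 41.8% of all tiles, and between WT D10 and WT D2, 6 had more at D10 and 3 had fewer, against 25.5% and 25%. Between WT D10 and WT D0, 8 of the 18 had more peaks at D10 (chromosomes 4, 8, 9, 10, 11, 14, 15 and 16) and 3 had fewer (chromosomes 3, 7 and 12). Of all tiles, 25.2% were higher and 38% were lower. The median log2 change was 0.19 over the terminal tiles and -0.12 over all tiles; with each library centred on its median tile, these medians were 0.40 and 0.09, and 12 terminal tiles were higher and 2 lower. In covered bp in place of peaks, where the median of all tiles was -0.50, 2 terminal tiles were higher and 5 lower. No share over all tiles is given for centring or for covered bp, so those counts do not set the ends apart.

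The end of chromosome 4 gained the most. Its terminal tile had 274, 283 and 322 peaks in the 3 WT D10 libraries, against 128, 149 and 164 in the 3 WT D0 libraries, with 237, 196 and 232 at WT D2. No WT D10 library overlapped a WT D0 library (log2 change 0.99, SE 0.10, limma adjusted p = 2.08e-08). The tile of chromosome 16 had 157, 163 and 157 peaks at WT D10, against 77, 84 and 95 at WT D0 (log2 change 0.90, SE 0.10, limma adjusted p = 4.70e-08), and most of that came after D2, when it had 111, 90 and 98 peaks.

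The end of chromosome 11 held the most peaks of any terminal tile in every WT library, 501, 512 and 537 at WT D10 against 385, 364 and 371 at WT D0. Its highest WT values were at D2, with 638, 532 and 606 peaks (log2 change of D2 against D0 0.66, SE 0.07, limma adjusted p = 6.84e-08), and those at D10 were lower than at D2 (log2 change -0.19, adjusted p = 0.0227, limma). That last change did not pass without WT D2 A or C or without WT D10 A or B (log2 -0.19 to -0.14), and with whole lists it was 0.07. The tile of chromosome 15 likewise stood at 373, 327 and 344 peaks at WT D2 and at 338, 327 and 327 at WT D10, against 201, 189 and 281 at WT D0.

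The ends of chromosomes 12 and 3 lost peaks. On chromosome 12 the terminal tile had 12, 15 and 13 peaks in the 3 WT D10 libraries, against 35, 34 and 49 in the 3 WT D0 libraries (log2 change -1.48, SE 0.19, limma adjusted p = 6.11e-07), and 22, 18 and 22 at WT D2. On chromosome 3 it had 11, 9 and 15 peaks at WT D10, against 41, 36 and 26 at WT D0 (log2 change -1.48, SE 0.23, limma adjusted p = 4.55e-06). Both are among the ends with few peaks. The smaller fall of chromosome 7 (log2 change -0.30, adjusted p = 0.0354, limma) and the rises of chromosomes 8 and 9 (0.28 and 0.21, adjusted p of 0.0130 and 0.0204, limma) did not pass in a fit of all 15 pre-iPSC libraries. Without WT D0 C chromosome 7 was at -0.11 and chromosome 8 at 0.17, and without WT D0 B chromosome 9 was at 0.16, none past the threshold. In covered bp chromosomes 8 and 9 turned to -0.10 and -0.12.

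The second tile, from 5 to 10 Mb, was called on nearly all chromosomes. At WT D10 against WT D0 it had more peaks on 17 of 19 chromosomes and fewer on 1, with a median log2 change of 0.59. The next tile inwards, from 10 to 15 Mb, had more on 11 of 18 and fewer on 1, with a median of 0.25.

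In KO cells the same ends did not pass the test between days. The tile of chromosome 4 had 184 and 244 peaks in KO1 and KO2 at D10 and 225 and 267 at D0, and that of chromosome 16 had 75 and 126 at D10 and 93 and 99 at D0. KO had more chromosome 4 terminal peaks than WT at D0 (log2 difference 0.74, SE 0.15, limma adjusted p = 0.0429), the only terminal tile past the threshold at that day, against 0.226% of all 443 tiles higher and 0.226% lower. It did not pass without KO2 at D0 or without any single WT library other than WT D0 C (log2 difference 0.62 to 0.75). At D2 no terminal tile passed limma, and 3 had an unadjusted p under 0.05; between KO days none passed limma, and 2, 0 and 1 had an unadjusted p under 0.05 for D2 against D0, D10 against D2 and D10 against D0.

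With the KO line as a block, since KO1 and KO2 were each sampled on every day, the terminal tile of chromosome 1 had fewer peaks at KO D2 than at KO D0, against 4.51% of all tiles lower and 3.16% higher. It had 61 and 69 peaks in KO1 and KO2 at D2, against 86 and 99 at D0. This fall was -0.50 on the log2 scale (SE 0.14, adjusted p = 0.0321 by limma). On chromosome 19 the tile had 122 and 176 peaks at D2 and 181 and 199 at D0 (log2 change -0.37, limma adjusted p = 0.0661), which did not pass. In that fit 6, 0 and 5 terminal tiles had an unadjusted p under 0.05 for KO D2 against KO D0, D10 against D2 and D10 against D0. None passed limma for D10 against D2 or for D10 against D0, against 2.71% of all tiles higher and 2.48% lower for D10 against D0.

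At D10 the terminal tiles of chromosomes 1, 4, 8, 9, 10 and 16 had fewer peaks in KO than in WT and that of chromosome 12 had more, so 6 of 18 were lower and 1 was higher, against 9.03% and 12.2% of all tiles. The tile of chromosome 12 had 43 and 40 peaks in KO1 and KO2, against 12, 15 and 13 in WT A, B and C (log2 difference 1.57, SE 0.28, limma adjusted p = 0.00284). The tile of chromosome 16 had 75 and 126 peaks in KO, against 157, 163 and 157 in WT (log2 difference -0.70, SE 0.17, adjusted p = 0.0108, limma), and that of chromosome 1 had 68 and 68, against 111, 98 and 95 (log2 difference -0.57, SE 0.14, adjusted p = 0.0108, limma). The other 4 differed by -0.49 to -0.31 with adjusted p of 0.0346 to 0.0480 (limma). Without KO1 at D10 no terminal tile was lower, 2 were lower without WT D10 A, B or C, and 3 without WT D0 B or WT D2 C; chromosome 12 passed when any 1 library was left out. In covered bp, where the median of all tiles was 0.46, 3 terminal tiles were higher and none lower, and chromosomes 4, 8, 9 and 10 changed sign. No share over all tiles is given for covered bp or with a library left out, so those counts do not set the ends apart.

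**Figure D3:**
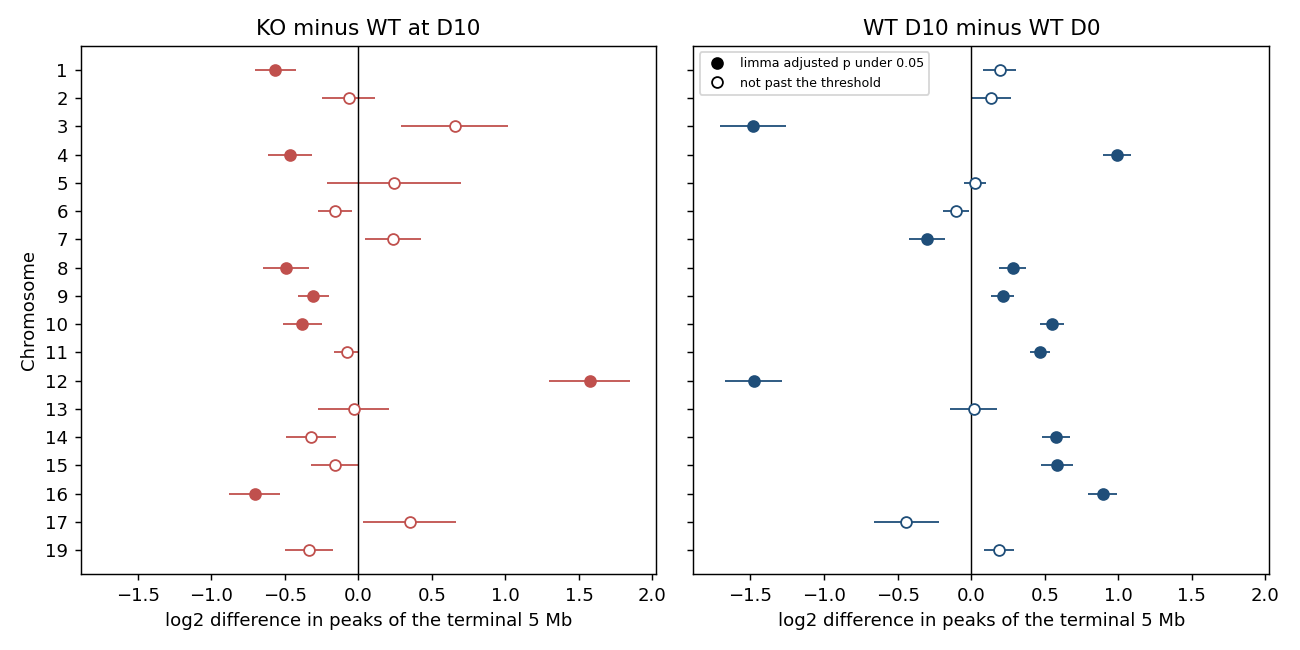
Log2 difference in peaks of the terminal 5 Mb tile of each chromosome tested (rows), with SE from limma, for KO minus WT at D10 (left) and WT D10 minus WT D0 (right); filled points passed the threshold. Chromosomes 4 and 16 lie to the right and chromosomes 3 and 12 to the left in WT, and chromosome 12 lies farthest to the right in KO minus WT.

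The changes from D0 to D10 themselves differed between the arms at 4 of 18 terminal tiles: chromosomes 1, 4 and 16 moved lower in KO relative to WT, and chromosome 12 moved higher, against 3.61% of all tiles lower and 8.8% higher. With the KO line as a block 6 were lower and 2 higher (10.8% and 20.3% of all tiles). Under this block the changes from D2 to D10 were lower in KO at 4 and higher at 1 (7.67% and 9.03% of all tiles). Those from D0 to D2 were lower at 2 (2.26% of all tiles, with 1.13% higher). Without the block limma called no terminal tile for either, and 6 and 2 had an unadjusted p under 0.05. The same block gave 8 lower and 1 higher for KO against WT at D10 (17.4% and 21.2% of all tiles), and 1 higher and 1 lower at each of D0 and D2 (4.97% and 10.8% of all tiles at D0, 8.13% and 6.09% at D2). For KO against WT on a single day, this block takes the difference between KO1 and KO2 out of the spread. These single-day counts are therefore too liberal, and no conclusion is drawn from them. Without the block 0.226% of all tiles were higher and 0.226% lower at D0. Of the 4 interactions, that of chromosome 4 passed when any 1 library was left out, while each of the other 3 did not pass without some library, KO1 at D10 among them.

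For orientation only, and not to place any peak, the genes nearest each end were read from RefSeq on GRCm38, another build than that of the peaks. The last genes of chromosome 4 there include Samd11, Noc2l (an inhibitor of histone acetylation), Klhl17 and Plekhn1. Those of chromosome 16 include Zbtb21, Prdm15 (a zinc finger factor of the PR domain family), Ripk4 (a kinase of epidermal differentiation) and Tmprss2 (an epithelial serine protease). Those of chromosome 12 include Macc1, Itgb8 (an integrin subunit), Abcb5 (a membrane transporter) and Sp8 (a transcription factor of limb development), and those of chromosome 3 include Wls (a carrier of secreted Wnt proteins) and Rpe65 (the retinoid isomerase of the eye).

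Within the ends, 10 kb windows were tested on log2(covered bp + 200), counting the bp under peaks of the lists of one length after scaling all libraries to a common total. Of 899 distal windows, 265 (29.5%) had more covered bp at WT D10 than at WT D0 and 192 (21.4%) had less; of all 14783 windows, 22.7% had more and 27.1% less. The median log2 change was 0.07 over the distal windows and -0.18 over all windows. Between WT D2 and WT D0, 143 distal windows (15.9%) had more and 19 (2.11%) less, against 14.7% and 2.99% of all windows. Between WT D10 and WT D2, 157 (17.5%) had more and 274 (30.5%) less, against 13.8% and 33.3%. With each library centred on its median window, D2 against D0 gave 90 higher and 37 lower (8.46% and 5.52% of all windows). D10 against D2 then gave 228 higher and 185 lower (20.2% and 23.6% of all windows), so the balance of that comparison turned. The 143 became 81 without WT D2 A and 89 without WT D2 C, and the 19 became 6 without WT D0 A or B and 42 without WT D0 C. The 157 became 103 without WT D10 B and 94 without WT D10 C, and the 274 became 182 without WT D2 A and 179 without WT D2 C. No share over all windows is given for fits with a library left out, so these counts do not set the ends apart. In the outermost Mb, 12 of 56 windows had more covered bp at WT D10 than at WT D0 and 17 had less, and in the next Mb 48 of 121 had more and 23 had less.

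The windows named next were chosen for the largest rises to WT D10, so their high cover on that day follows from the choice. The window on chromosome 11 from 120670001 to 120680000, 1.17 Mb from the end, had 6923, 8582 and 7292 scaled covered bp in the 3 WT D10 libraries and 219, 0 and 270 in the 3 WT D2 libraries, and was listed at 0 in the 3 WT D0 libraries. It was at 0 in KO1 and at 585 in KO2 at D10, and the mESC lists covered 0, 964 and 1485 bp of it at 0, 12 and 72 hours. Its log2 change on this scale was 5.28 between WT D10 and WT D0 (SE 0.36, limma adjusted p = 8.79e-06) and -4.33 between KO and WT at D10 (SE 0.62, limma adjusted p = 0.000308). Log2 changes against windows listed at 0 depend on the added 200 bp and give no fold. Windows were tested where their mean over the fitted libraries was at least 500 bp. The chromosome 11 window met that minimum only through its WT D10 values, so its choice was not separate from the values compared. Other named windows listed at 0 in a group likewise met it through the remaining groups. The p-values of all these windows are therefore no separate support for a change.

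On chromosome 2, the window from 179920001 to 179930000, 1.82 Mb from the end, had 7680, 7382 and 7337 scaled covered bp at WT D10 and none at WT D0 (log2 change 5.26, SE 0.70, limma adjusted p = 0.000271). This window too met the minimum for testing only through its WT D10 values. The WT D2 libraries had 1532, 0 and 1315 bp there and KO1 and KO2 at D10 had 0 and 1391. In whole lists it holds the region from 179923847 to 179929889, 6043 bp long, which had a peak in every WT D2 and WT D10 library, in both KO lines at D2 and D10 and in all 3 mESC lists, and in no D0 library. The window of chromosome 19 from 57450001 to 57460000 followed, with 3505, 4838 and 4369 bp at WT D10 and none at WT D0 (log2 change 4.46, SE 0.41, limma adjusted p = 4.33e-05). From D2 to D10 the next largest rises after that of chromosome 11 were on chromosome 8, from 127200001 to 127210000 (3655 ± 175 bp at WT D10 and none at WT D2), and on chromosome 4, from 154340001 to 154350000 (2785 ± 299 bp at WT D10 and none at WT D2; SD, n = 3 each).

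From D0 to D2 the largest rises were on chromosome 10, from 126670001 to 126680000 (2372 ± 464 bp at WT D2, none at WT D0), on chromosome 6, from 144980001 to 144990000 (2204 ± 410 bp at WT D2, none at WT D0), and on chromosome 11, from 117140001 to 117150000 (2692 ± 112 bp at WT D2 and 107 ± 185 bp at WT D0; SD, n = 3 each). With limma their log2 changes were 3.67, 3.57 and 3.39, with adjusted p of 0.000219, 0.00513 and 0.0114. At WT D10 the chromosome 10 window still had 1414, 1248 and 1071 bp. The largest falls from D0 to D2 were on chromosome 14, from 121940001 to 121950000, on chromosome 10, from 125430001 to 125440000, and on chromosome 5, from 152000001 to 152010000, with log2 changes of -2.84, -2.67 and -2.43 (limma adjusted p of 0.00880, 0.00244 and 0.0102).

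The window of chromosome 15 from 98600001 to 98610000 was among the 3 deepest falls to D10 both from D2 and from D0, the only window in both lists. It was listed at 0 in the 3 WT D10 libraries, against 3065, 3075 and 2942 scaled covered bp in the 3 WT D2 libraries and 1746, 2019 and 1669 in the 3 WT D0 libraries. Its log2 change was -4.01 from D2 to D10 (SE 0.23, limma adjusted p = 8.15e-06) and -3.33 from D0 to D10 (SE 0.23, limma adjusted p = 8.79e-06). It kept 2904 and 1260 bp in KO1 and KO2 at D10. The window of chromosome 11 from 117460001 to 117470000 and that of chromosome 15 from 98920001 to 98930000 were also at 0 in all WT D10 libraries, against 2544 ± 332 and 2251 ± 203 bp at WT D2 (SD, n = 3 each). At WT D0 the first had 1979, 1789 and 919 bp and the second 1724, 1032 and 1156. From D0 to D10 the next falls were on chromosome 8, from 127540001 to 127550000 (104 ± 96.3 bp at WT D10 and 2657 ± 819 bp at WT D0), and on chromosome 6, from 145020001 to 145030000 (none at WT D10 and 1679 ± 573 bp at WT D0; SD, n = 3 each). The WT D2 libraries had 2371, 539 and 770 bp in the chromosome 8 window and 0, 1136 and 1682 bp in that of chromosome 6.

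Between KO and WT at D10, 170 of 949 distal windows (17.9%) had more covered bp in KO and 67 (7.06%) had less, against 20.8% and 5.08% of all 15736 windows. With each library centred on its median window, which moved the median of all windows from 0.66 to 0.03, the split turned to 86 higher and 135 lower among distal windows, against 9.73% and 9.75% of all windows. Without KO1 at D10, 80 distal windows were higher, and without WT D10 A, B and C in turn 40, 30 and 33 were lower. No share over all windows is given for the fits with a library left out, so their counts do not set the ends apart. The largest rises in KO were the chromosome 15 windows from 98920001 and from 98600001, which had none at WT D10, and the chromosome 11 window from 117190001 to 117200000, with 2416 and 2341 bp in KO1 and KO2 and none in WT D10 (log2 difference 3.69, SE 0.46, limma adjusted p = 0.000120). The largest falls were the chromosome 14 window from 121680001 to 121690000, with none in KO and 3559, 4337 and 4745 bp in WT (log2 difference -4.45, SE 0.47, limma adjusted p = 3.30e-05), the chromosome 11 window from 120670001 described above, and the chromosome 8 window from 126860001 to 126870000 (none in KO, 3004 ± 359 bp in WT, SD, n = 3). At D0 1 distal window had more in KO, against 0.0381% of all windows with more and 0.0127% with less; at D2 none was called by limma, and 68 had an unadjusted p under 0.05.

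Between KO days few distal windows passed. Between KO D2 and KO D0, 13 had more covered bp at D2 and 3 had less, against 1.49% and 0.305% of all windows, and between KO D10 and KO D0, 9 had more and 2 had less, against 0.845% and 0.121%. With the KO line as a block these became 19 more and 7 less for D2 against D0 (2.36% and 0.572% of all windows) and 21 more and 6 less for D10 against D0 (2.2% and 0.483% of all windows). Between KO D10 and KO D2 none passed limma, and 14 had an unadjusted p under 0.05 (none passed and 27 did with the block). The changes themselves differed between KO and WT at more windows: from D2 to D10, 77 distal windows moved higher in KO relative to WT and 26 lower, against 9.35% and 1.66% of all windows, and from D0 to D10, 45 moved higher and 26 lower, against 6.38% and 1.61%. With centring, the D2 to D10 split was 26 higher and 31 lower, against 2.54% and 2.42% of all windows. The D0 to D10 split was 18 higher and 39 lower, against 2.14% and 2.63%. With the KO line as a block the D0 to D10 split was 72 higher and 39 lower, against 9.6% and 2.78%.

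The ends also turned over as whole regions. Peaks of the 9 WT libraries merged into 294585 regions, 14606 of them distal. A region was counted as gained where all libraries of the later day had a peak and all of the earlier lacked one, and as lost in the reverse case. Between D0 and D2, 1381 distal regions were gained and 272 lost; between D2 and D10, 580 were gained and 2067 lost; and between D0 and D10, 1209 were gained and 1135 lost. Gains from D0 to D10 took 8.28% of the distal regions and 6.42% of the others, against 6.51% of all regions, and losses took 7.77% and 8.96%, against 8.9%. For D0 to D2 the background was 8.46% gained and 2.54% lost, and for D2 to D10 it was 3.37% and 14%. These lists differ in length, from 54997 peaks at WT D10 C to 160426 at WT D2 A. The shares above belong to whole lists with all 9 WT libraries, and none is given for the counts that follow. Lists of one length gave 9825 distal regions. Of these, 528 were gained and 325 lost between D0 and D2. Between D2 and D10 the counts were 688 and 804, and between D0 and D10 they were 945 and 763. In whole lists, without WT D2 C 2247 were gained from D0 to D2; leaving out WT D0 C gave 916 losses between D0 and D2 and 2319 between D0 and D10; and without WT D10 C the gains came to 1034 between D2 and D10 and 1993 between D0 and D10. The longest distal regions lost by D10, on chromosome 8 (127544240 to 127548569, 4330 bp), chromosome 6 (145122539 to 145125788, 3250 bp) and chromosome 15 (99870599 to 99873539, 2941 bp), had a peak in KO1 and KO2 at D10. All 3 had a peak in both KO lines at D0 as well, except that of chromosome 8 in KO2.

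After the chromosome 2 region, the longest of those present at D10 but not D0 were on chromosome 15 (98484948 to 98487865, 2918 bp), at the inner edge of the end, and chromosome 5 (147564857 to 147567681, 2825 bp), both with a peak in the mESC 72 hour list. From D2 to D10 the longest gains were on chromosome 14 (121341884 to 121343621), chromosome 16 (93992430 to 93994000) and chromosome 8 (126857821 to 126859318). From D0 to D2 the longest after chromosome 2 was on chromosome 5 (149264325 to 149266583, 2259 bp), which had peaks in KO1 at D2 and D10 and in no KO2 or mESC list. The longest lost by D2 were on chromosome 19 (57141124 to 57142478), chromosome 16 (94390747 to 94392081) and chromosome 12 (118542895 to 118543991), and none had a peak in any mESC list.

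Regions chosen in this way were also read in libraries that had no part in the calls. Their bounds came from all 9 WT libraries, the one left out included, and from no KO library. With 1 WT letter left out of the choice in turn, distal regions gained from D2 to D10 had a peak in 70.7% ± 12.2 of cases in the WT D10 library left out (SD over 3 letters), and regions of the rest in 68.1% ± 13.2. In KO at D10, 3.48% of the distal ones had a peak in KO1 and 19.2% in KO2, against 3.0% and 17.3% of the rest. Distal regions lost from D2 to D10 had a peak in 71.3% of cases in KO1 and 51.9% in KO2 at D10, against 8.92% ± 5.22 in the WT D10 library left out. Lost regions of the rest gave 70.8% in KO1 and 50.1% in KO2, against 8.20% ± 4.99 in WT, so the distal values were close to those of the rest. The difference between distal regions and the rest was not tested. At D2 the lost distal regions had a peak in 80.1% of cases in KO1, 58.7% in KO2 and 82.8% ± 10.8 in the WT library left out. For the gained ones these D2 values were 11.3%, 11.2% and 10.1% ± 10.4. Whole lists were used, and those of KO D10 (111808 and 111075 peaks) were longer than those of WT D10 (54997 to 86096).

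Distal peaks of WT cells overlapped those of mESC at 12 and 72 hours more often on later days, and so did the other peaks of the same libraries. In lists of one length the other peaks rose from 2.06% at WT D0 to 17.7% at WT D10 with the 72 hour list. With the 12 hour list they rose from 7.72% to 21.2% (exact permutation F over the WT days, unadjusted p = 0.00357 each). The rise was therefore not particular to the ends. In lists of one length, 16.9% ± 0.366 of distal peaks overlapped a peak of the mESC 72 hour list at WT D10, against 2.93% ± 0.777 at WT D0, with 4.16% ± 0.0555 at WT D2 (SD, n = 3 each; exact permutation F, p = 0.00357, 0.0107 after adjustment over 6 tests). In KO at D10 it was 3.31% in KO1 and 7.01% in KO2. The 12 hour list gave 11.8% and 16.3% in these KO1 and KO2 libraries, and the 0 hour list gave 16.0% and 14.7%. Thus KO D10 lay below WT D10 with the 72 and 12 hour lists and above it with the 0 hour list. At 50% overlap the 0 hour means were closer, at 8.33% in KO D10 and 7.83% in WT D10. With the 12 hour list the WT values were 9.13% ± 0.812, 14.0% ± 0.120 and 21.0% ± 1.17 at D0, D2 and D10 (exact p = 0.00357, 0.0107 adjusted). With the 0 hour list they were 11.9%, 11.9% and 14.2% in the 3 WT D0 libraries, 17.2%, 17.9% and 16.8% in the 3 WT D2 libraries and 12.0%, 11.6% and 9.23% in the 3 WT D10 libraries, highest at D2 (exact p = 0.0107, 0.0161 adjusted). This 0 hour result did not pass in whole lists (exact permutation F, p = 0.436) or at 50% overlap (p = 0.525, exact). Without chromosome 8 the WT means at D0, D2 and D10 were 2.69%, 3.87% and 15.9% with the 72 hour list. They were 7.91%, 12.8% and 19.6% with the 12 hour list and 12.7%, 17.5% and 11.3% with the 0 hour list.

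**Figure D4:**
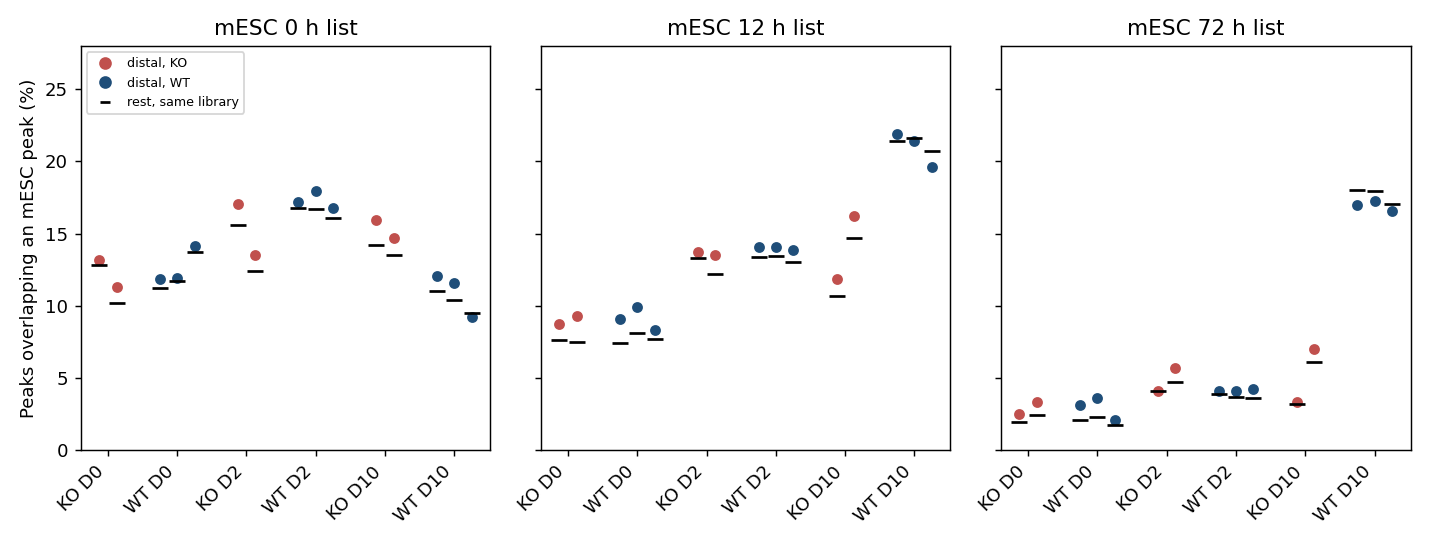
Percent of peaks of each pre-iPSC list of one length that overlap a peak of the mESC list by at least 1 bp, for distal peaks (points, KO and WT) and for the other peaks of the same library (dashes), with 1 panel per mESC list. In the 72 hour panel the WT D10 points stand at 16.6% to 17.3%, below the dashes of their own libraries and above the points of all other groups.

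Relative to the other peaks of their own library, distal peaks matched the 72 hour list less often at WT D10, by -0.716 ± 0.263 points, and more often at WT D0, by 0.870 ± 0.499 points (SD, n = 3 each). This gap differed over the WT days (exact permutation F, p = 0.0107, 0.0161 adjusted), as did the gap with the 12 hour list (-0.267 points at D10 and 1.41 points at D0, exact p = 0.0179, 0.0214 adjusted), while that with the 0 hour list did not pass (exact p = 0.682, 0.682 adjusted). The size of these gaps depended on the setting. With the 72 hour list the D10 gap was -0.825 points in whole lists, -1.38 at an overlap of at least 50% and -0.999 without chromosome 8. The D0 gap was 0.447, 0.188 and 0.786 points. With the 12 hour list the D10 gap was -0.494, -1.52 and -0.468 points in the same settings. Its D0 gap was 1.08, 0.656 and 0.705 points. Read from the mESC side, of the distal peaks of the mESC 72 hour list, 46.4%, 45.9% and 46.1% had a peak in the lists of one length of WT D10 A, B and C, against 41.8%, 41.8% and 38.8% of its other peaks.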

How the data were processed

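5hmC enrichment sequencing gave 18 peak lists from 19 samples; the input had none used here. Bowtie, SAMtools, MACS2 and mm9 are named, without tool versions, per the submitters' processing notes. Each deposited list has a score, a fold enrichment as a linear ratio, and -log10 p and -log10 q per peak, per the MACS2 column layout, and the run names carry a p threshold of 0.0001. These values are the authors' own and served to rank, filter or describe peaks. A label says that peaks were not called for mESC samples, yet their lists share the layout and were used.

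Ends were set by the largest peak end per chromosome over the 18 lists. Libraries were the units of the exact two-sided permutation tests of shares. Tests of KO against WT over several days shuffled labels within each day and did not pair the days of KO1 or KO2. Lists of one length hold the 54997 strongest pre-iPSC peaks by -log10 p (23876 for mESC). Tiles of 5 Mb (mean of at least 20 peaks) and windows of 10 kb (mean of at least 500 bp) were tested with limma 3.58.1 (trend, robust) in R 4.3.3, with Benjamini-Hochberg adjustment at 0.05 over all features; 9 WT libraries were fitted for WT days and all 15 in 6 groups for KO. Overlap means 1 bp. All 19 terminal tiles could be named, the 3 largest rises and falls per contrast among distal windows past the threshold with groups that do not overlap, and the 3 longest regions. Scripts were tested on simulated data. No genes were assigned to peaks, since no mm9 annotation was used here. The labels do not say that replicates are separate cultures, so the spread behind each p-value is that among these libraries and may be technical. Absolute depth is unknown.

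WT letters did not pair the samples (correlations of tile deviations between days of -0.349 to 0.124), so no block was used; KO1 and KO2 did, by their titles as the same lines (0.668 to 0.782), and the block was added after seeing the data, as were the comparisons of changes between arms on the share and, from D0 to D10, in the tiles. The members, lists and tests were chosen with earlier results of these data known.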

Additional observations from a re-analysis of the deposited data

Results flagged for a closer look

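The change in the distal share of peaks differed between KO and WT cells by -1.25 points from D0 to D10 (exact permutation within days, p = 0.01) and by -0.683 points from D0 to D2 (p = 0.04, exact, 0.06 adjusted over 3 comparisons). The change from D0 to D10 in the terminal tile, KO minus WT on the log2 scale, was -0.63 on chromosome 1 (limma adjusted p = 0.0466), -1.20 on chromosome 4 (limma adjusted p = 0.00601), 1.31 on chromosome 12 (limma adjusted p = 0.0397) and -0.88 on chromosome 16 (limma adjusted p = 0.0324). Each was picked out by a test of the difference between the arms itself. The share from D0 to D2 did not pass after adjustment, nor in lists of one length (p = 0.12, exact). These tests took the KO libraries of different days as unrelated, although KO1 and KO2 were the same lines on each day.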

How the results depend on the processing

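With the ends set at 2 Mb, the WT range of day means was 0.0540 points, D10 minus D2 -0.0540, D10 minus D0 -0.000390, KO minus WT 0.00846 at D10 and 0.00140 over the days, and KO change minus WT change -0.0505 (D10 minus D0), -0.122 (D2 minus D0) and 0.0717 (D10 minus D2). The D2 minus D0 value of the arms was -0.637 in lists of one length, -0.622 for peaks with -log10 q of at least 5, and -0.799 to -0.602 with 1 library left out. The mESC shares at 0, 12 and 72 hours were 1.28%, 1.01% and 1.17% at 2 Mb and 12.6%, 14.1% and 13.7% at 10 Mb; the median of the 19 chromosomes was 4.59% at 0 hours and 5.83% at 72 hours, the 0 hour share without chromosome 5 was 4.82%, and the 12 hour share in lists of one length 4.92%.

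Tiles of 2 Mb, of which 33 in the outer 4 Mb were tested, up to 2 a chromosome, gave 10 higher and 11 lower for WT D2 minus D0, 8 lower for D10 minus D2, 14 lower for D10 minus D0, 3 higher and 2 lower for KO minus WT at D10, and 0 higher for the change between arms. Covered bp gave 2 lower (WT D2 minus D0), 0 higher and 6 lower (D10 minus D2), 2 higher and 5 lower (D10 minus D0), 0 called (KO minus WT at D0), 3 higher and 0 lower (at D10) and 0 lower (change between arms). In covered bp the sign turned for WT D10 minus D2 on chromosomes 4 (-0.11), 8 (-0.00432) and 19 (-0.0841), for WT D10 minus D0 on chromosomes 8 (-0.10) and 9 (-0.12), and for KO minus WT at D10 on chromosomes 4 (0.0184), 8 (0.00317), 9 (0.200) and 10 (0.0175); in whole lists it turned for WT D10 minus D2 on chromosome 11 (0.0668). WT D2 minus D0 had 3 lower tiles in whole lists, 2 with centring and 3 in the fit of 15 libraries, where D10 minus D2 had 0. KO minus WT at D0 had 2 in whole lists. The change between arms had 0 higher with a pseudocount of 10 and 6 lower with centring. Counts are listed here only where they moved clearly from the main setting. No share over all tiles is given beside them, so they do not set the ends apart from other tiles. The causes were not tested.

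The WT letters do not pair the samples; with them as a replicate block the share gave exact p = 0.0278, and the terminal tiles stayed at 8 higher and 3 lower and the windows at 263 higher and 186 lower for D10 minus D0. No share over all tiles or windows is given for that block. The block of the KO lines, added after seeing the data, gave 2 tiles at D0, 2 at D2, and 2 higher and 6 lower for the change between arms. Its counts at D0 and D2 are too liberal, since it takes the difference between KO1 and KO2 out of the spread. KO and WT labels share no replicate, so no block joins them.

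Distal windows with a minimum of 100 bp gave 270 higher and 201 lower (WT D2 minus D0), 497 and 461 (D10 minus D2), 659 and 470 (D10 minus D0), 4 called (KO minus WT at D0) and 336 lower (at D10). Whole lists gave 302 higher (D10 minus D2), 468 higher and 342 lower (D10 minus D0), 9 called (KO minus WT at D0) and 291 higher and 165 lower (at D10). Centring gave 90 higher and 37 lower (WT D2 minus D0), 0 called (KO minus WT at D0) and 86 higher and 135 lower (at D10), and a pseudocount of 1000 bp 0 called at D0. A minimum of 100 bp tests more windows than the main minimum, so its counts do not compare with the main ones. No share over all windows is given beside the counts of these settings. Overlap with the 0 hour mESC list changed from D0 to D10 by -0.0554 points at 50% overlap and -0.794 in whole lists, neither past the threshold. Lists of one length gave 528 regions gained from D0 to D2 and 804 lost from D2 to D10.

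With 1 library left out, lower tiles ran from 2 to 6 (WT D2 minus D0), 1 to 4 (D10 minus D2) and 0 to 6 (KO minus WT at D10), tiles called at D0 from 0 to 1, and the change between arms from 0 to 1 higher and 1 to 5 lower. Windows ran from 81 to 197 higher and 6 to 42 lower (WT D2 minus D0), 94 to 146 and 179 to 269 (D10 minus D2), 80 to 182 and 30 to 87 (KO minus WT at D10), and 0 to 1 and 0 to 4 called at D0 and D2. Regions ran from 1473 to 2247 gained and 294 to 916 lost (D0 to D2), 604 to 1034 gained (D2 to D10), and 1235 to 1993 gained and 1181 to 2319 lost (D0 to D10). No share over all tiles, windows or regions is given beside these ranges.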
